A study of Mus musculus with 21 samples.

Results

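Contacts of a site named -470 kb, upstream of the mouse gene Satb1, were compared between adult thymus and embryonic stem (ES) cells. The 2 libraries were chosen by their viewpoint and tissue labels, from 21 libraries in the series, which profiled the alpha-globin, beta-globin, Oct4 and Satb1 loci. The thymus library came from 1 adult thymus of strain C57BL/6, a whole organ whose cell types were not separated. The ES library came from cells of the IB10/E14 line, grown in serum-containing medium conditioned by buffalo rat liver cells, with leukemia inhibitory factor. Both were fixed with 2% formaldehyde for 10 minutes and cut first with DpnII and then with Csp6I, and no genetic or drug treatment was given in the labels. Each tissue had 1 library, and an organ was set against a cultured line, so tissue, library and origin cannot be told apart, no test was possible and no p-value was computed. RNA was not measured in these samples, and the thymus and ES labels could therefore not be checked against marker genes.

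Circular chromosome conformation capture with sequencing (4C-seq) measures how often chromatin fragments are ligated to 1 chosen fragment, the viewpoint, in fixed nuclei. A high signal at a distant site means that the site lay near the viewpoint in more cells, or in more of the sampled ligations. Satb1 encodes a nuclear protein that binds AT-rich DNA and organises chromatin loops, is highly expressed in developing T cells of the thymus and is needed for their normal development. Distant enhancers of such genes often lie in gene deserts and come close to the promoter in the cells that use them.

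In the gene table (names and order, GRCm38.p6), Satb1 lies on the minus strand and its neighbours towards the viewpoint are Gm20098, Gm19197, Gm19585, Gm41600 and Gm27217, followed by Kcnh8, which encodes a voltage-gated potassium channel. Of these, 4 are listed as lncRNA and 1 as pseudogene, with 0 protein-coding genes between Satb1 and Kcnh8. In mm9, the build of the contact data, the viewpoint was placed at chromosome 17, 52420000, the position of highest signal in both libraries at the 5 kb window, and the Satb1 promoter viewpoint of the series at 51974000. The distance between them was 446 kb. The lower-coordinate side, called the Satb1 side here, thus runs through the desert to the promoter and then into the Satb1 gene, and the other side is called the Kcnh8 side. The data cover 718 kb on the first and 577 kb on the second.

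DpnII cuts at GATC, so a contact is read at the ends of fragments bounded by that sequence. The 2 starts farthest upstream, of 5 listed for Satb1, are shown because the promoter is the distant target on which the comparison turns, with GATC in capitals. They are taken from RefSeq, cover 300 bases around each start, and are read on the minus strand of chr17 in GRCm38.p6, at chr17:51833241-51833540 and chr17:51832598-51832897, coordinates that do not carry over to mm9. The labels do not say which start the promoter viewpoint belongs to.
Satb1 start 1: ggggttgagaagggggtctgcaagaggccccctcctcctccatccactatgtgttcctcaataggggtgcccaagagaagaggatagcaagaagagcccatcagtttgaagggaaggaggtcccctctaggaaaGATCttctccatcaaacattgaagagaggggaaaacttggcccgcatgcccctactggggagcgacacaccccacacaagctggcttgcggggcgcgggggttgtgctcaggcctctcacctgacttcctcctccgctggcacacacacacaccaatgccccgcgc
Satb1 start 2: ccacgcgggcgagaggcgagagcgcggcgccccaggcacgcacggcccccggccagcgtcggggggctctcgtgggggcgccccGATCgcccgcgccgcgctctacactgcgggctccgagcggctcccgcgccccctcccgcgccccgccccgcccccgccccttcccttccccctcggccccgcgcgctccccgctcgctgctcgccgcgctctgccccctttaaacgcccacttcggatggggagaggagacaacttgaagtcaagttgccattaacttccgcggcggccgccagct
Each of the 2 windows held 1 GATC, a palindrome and so the same on both strands. GATC was present in 47.97% of 32851 promoter windows of this length in the table. The Csp6I site GTAC had 0 matches in either window and was present in 35.8% of all windows.

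The signal is given every 1000 bp, smoothed over 48 running windows of 2 to 49 kb, with a middle, a higher and a lower value for each window. Their scale is the authors' own, with 5 kb maxima of 1.14 in thymus and 1.22 in ES cells at the viewpoint. The 5 kb window is the main scale, and 1275 positions beyond 10 kb from the viewpoint were compared. Their mean signal was 0.0284 in thymus and 0.0186 in ES cells, and their median 0.0142 in thymus and 0.00603 in ES cells. Relative signal is the signal divided by this mean. The number of reads is unknown. Empty positions made up 6.43% in thymus and 2.82% in ES cells, and 34 positions were empty in both. In addition, 12.2% of thymus positions and 22.1% of ES positions held the commonest value of their library, 0.00181 in thymus and 0.00175 in ES cells. Values at or below it have no order.

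Across the locus the thymus signal leaned towards Satb1. Over distances covered on both sides, 64.2% of the thymus signal and 53.1% of the ES signal lay on the Satb1 side. On that side 50% of the signal was reached within 139 kb of the viewpoint in thymus, against 88 kb in ES cells, and 80% within 384 kb in thymus, against 312 kb in ES cells. On the Kcnh8 side the order was the other way, with 50% reached within 68 kb in thymus, against 89 kb in ES cells. The deposited signal was higher in thymus at 377 of 425 positions between the promoter and the viewpoint, leaving out 10 kb at each end. On the Kcnh8 side it was higher at 275 of 567 positions, and among all positions at 841 of 1275. The mean deposited signal over all positions was itself 1.53 times as high in thymus as in ES cells. In relative signal the ratio of thymus to ES cells was 1.13 between the promoter and the viewpoint and 0.773 on the Kcnh8 side. Over the 1275 positions, which share their library and overlap in their windows, Pearson's r of log2 signal was 0.74 and Spearman's rho 0.73, and after division by the fitted decay r was 0.61 and rho 0.58. On the Satb1 side alone, over 708 positions, these were 0.45 and 0.34, and on the Kcnh8 side, over 567, they were 0.56 and 0.57.

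**Figure D1:**
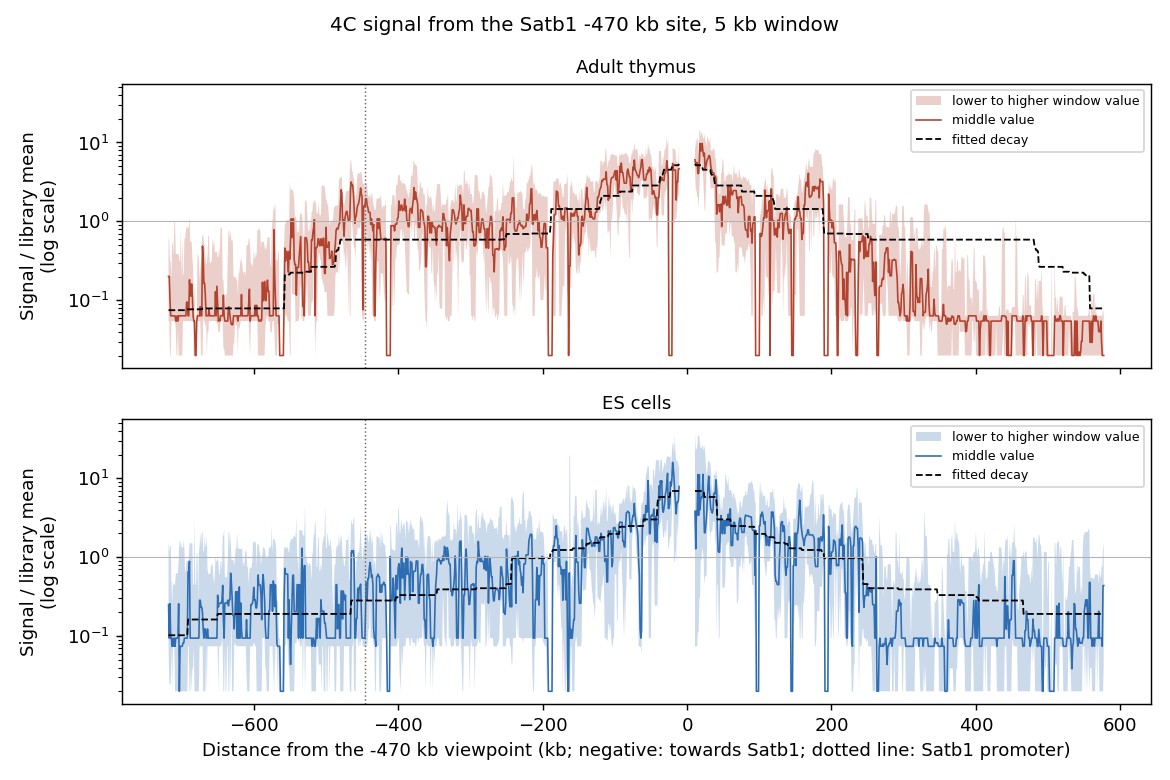
Signal over the library mean (log scale) against distance from the viewpoint in kb, in thymus above and ES cells below, 1 library each. The line is the middle value of the 5 kb window, the shading runs from its lower to its higher value, the dashed line is the fitted decay and the dotted line marks the Satb1 promoter; values under 0.02 are drawn at 0.02. Over the first 200 kb on the Satb1 side the ES segment means fall from 5.98 through 2.69 to 1.04. Those of thymus rise from 2.96 to 4.01 and then fall to 1.53. From there to 500 kb the segment means stay between 0.924 and 1.16 in thymus and lie between 0.323 and 0.691 in ES cells.

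By distance, the tissues parted in opposite directions in mean relative signal near and far from the viewpoint on the Satb1 side. At 10 to 50 kb the mean relative signal was 2.96 in thymus and 5.98 in ES cells. At 50 to 100 kb it was 4.01 in thymus and 2.69 in ES cells. The median deposited signal at 10 to 50 kb was nearly equal, 0.0915 in thymus and 0.0920 in ES cells. Empty positions made up 12.5% of that class in thymus and 0% in ES cells. From 200 to 500 kb the segment means of thymus were nearly level, with 0.924 at 200 to 300 kb, 1.16 at 300 to 400 kb and 1.03 at 400 to 500 kb. Within this stretch, bins of 25 kb ran from 0.665 to 1.72 in thymus. The ES profile had 0.691, 0.634 and 0.323 at those 3 distances, so its lowest value of the 3 lay in the stretch that holds the Satb1 promoter. The ratio of thymus to ES cells was largest there among the 14 distance classes, at 3.20 in relative signal and 4.89 in deposited signal. Of its 100 positions, 94% were higher in thymus in deposited signal, against 841 of 1275 over all positions. This share was not particular to the stretch. It was 98% at 50 to 100 kb, 89% at 100 to 200 kb, 97% at 200 to 300 kb and 95% at 300 to 400 kb. At 10 to 50 kb it was 45%, at 500 to 600 kb 58% and beyond 600 kb 55.9%. Beyond 600 kb the medians were the commonest values of the libraries, 0.00181 in thymus and 0.00175 in ES cells, so that share has little meaning. The mean deposited signal was lower in thymus there, 0.00225 against 0.00326 in ES cells. Averaged over the stretch of 400 to 500 kb, the lower to higher band ran from 0.00851 to 0.0638 in thymus. In ES cells it ran from 0.00116 to 0.0268, so the bands of the tissues overlapped. Beyond 600 kb the relative signal was 0.0793 in thymus and 0.175 in ES cells.

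**Figure D2:**
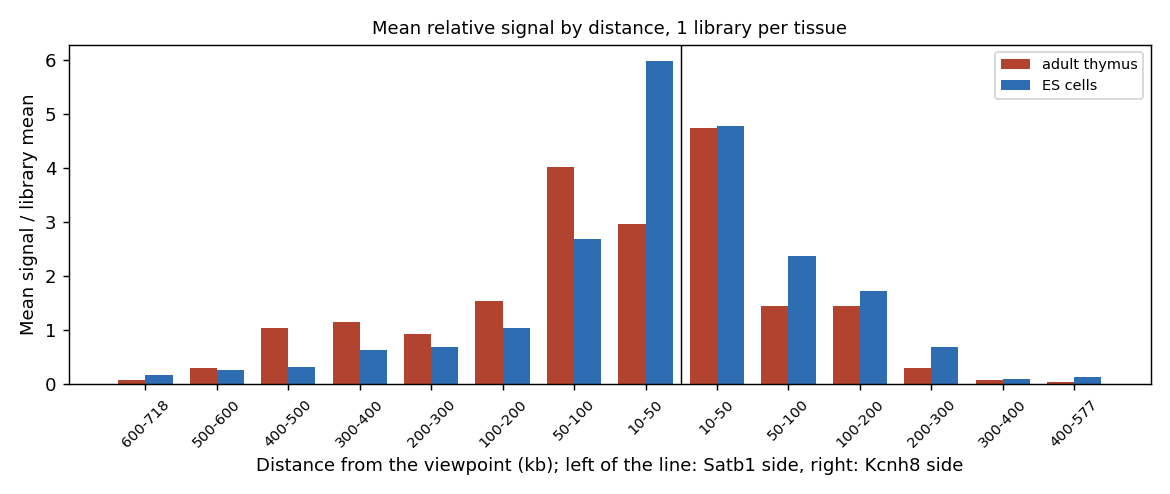
Mean relative signal (signal over the library mean, no unit) by distance from the viewpoint in kb, thymus left and ES cells right in each pair of bars, with the Satb1 side left of the vertical line; 1 library per tissue and hence no error bars. At 400 to 500 kb on the Satb1 side thymus had 1.03 and ES cells 0.323, while at 10 to 50 kb thymus had 2.96 and ES cells 5.98.

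At the Satb1 promoter itself (51969000 to 51979000) the thymus signal over 11 positions ran from 0.00215 through a median of 0.0451 to 0.0639, and the ES signal from 0.00175 through 0.00385 to 0.00995. Thymus was higher at 11 of 11 positions in deposited signal, against 841 of 1275 over the whole comparison. The latter count includes positions where both libraries held their commonest value. In relative signal ES cells were higher at 51971000. The ranges overlapped because of a single thymus position, 51971000, with 0.00215, next to which 51970000 had 0.0584. In ES cells 5 of the 11 positions held the library's commonest value, so the ES level there is close to a floor. The mean signal was 0.0445 in thymus, with a band from 0.00958 to 0.0842, and 0.00470 in ES cells, with a band from 0.00156 to 0.0287. Relative signal was 1.57 in thymus and 0.253 in ES cells.

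Signal falls with distance by itself, so each library was given a decay curve of its own, which pools both sides and can only decline. Observed over expected (O/E) is the signal averaged over 5 kb to either side of a target, divided by that curve there, after 10% of the library mean was added to each. At the promoter it was 2.43 in thymus and 0.923 in ES cells, a difference of log2 O/E of 1.39. Among 851 positions at 0.5 to 2 times this distance, on both sides of the viewpoint, that difference was at percentile 98.8. On the Kcnh8 side the mean difference was -0.63 at 200 to 300 kb, -0.72 at 300 to 400 kb and -1.09 beyond 400 kb. Positions there thus raise the percentile, and the rank among positions of the Satb1 side alone was not computed. The promoter's 2 neighbouring viewpoints overlap its window and are not independent of it. At the +1.5 kb viewpoint (51970000), inside the gene, O/E was 2.69 in thymus and 0.858 in ES cells, a difference of 1.65 at percentile 100 of such differences. At the -6 kb viewpoint (51977000), upstream of the promoter, O/E was 2.31 in thymus and 1.38 in ES cells, a difference of 0.75. With a decay fitted to the Satb1 side alone, the difference at the promoter was 1.07.

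The direction at the promoter did not depend on the smoothing scale. Thymus was above ES cells in 48 of 48 windows, with a difference of log2 O/E between 0.56 at the 49 kb window and 1.57 at the 6 kb window, and it exceeded 2-fold in 14 windows. At the +1.5 kb viewpoint it exceeded 2-fold in 23 windows and at -6 kb in 0. Wider windows changed both tissues: at 46 kb O/E was 2.19 in thymus and 1.43 in ES cells. The windows are nested in each other and are 1 measurement seen at different widths.

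**Figure D3:**
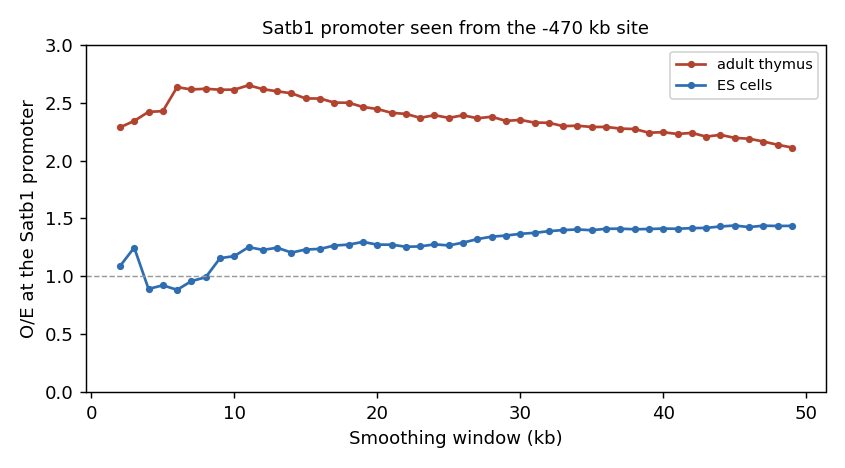
Observed over expected at the Satb1 promoter (no unit) against the width of the smoothing window in kb, for thymus and ES cells, 1 library each. Thymus lies above ES cells at all 48 widths, by 1.39 on the log2 scale at 5 kb and by 0.56 at 49 kb.

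A near-technical pair gives a rough scale for these differences. In fetal liver, the Hba-a1 promoter has a library with no dilution noted and a library made from diluted template, per their labels, which do not say that both came from the same template. These profiles differed with an SD of 0.48 in log2 O/E over 325 positions, and of 1.05 in log2 relative signal at single positions. The thymus and ES libraries differed with an SD of 0.81 in log2 O/E and 1.22 in log2 relative signal over 1275 positions. The pair comes from another locus and carries no biological spread, so it does not say how far 2 thymus or 2 ES samples would differ at the promoter.

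With each library scaled to its mean, and at the 5 kb window, thymus was over 2-fold higher in relative signal at 219 positions (17.2%) and over 2-fold lower at 204 (16%). Their places differed: 188 of the 219 lay on the Satb1 side, and 128 of the 204 on the Kcnh8 side. In the stretch of 400 to 500 kb that holds the promoter, 61% of positions were over 2-fold higher in thymus and 1% over 2-fold lower. The split depends on the window and on the scaling. It was 224 higher and 151 lower at the 10 kb window, 206 and 118 at 20 kb, and 165 and 77 at 40 kb. With each library scaled to its median it was 114 higher and 349 lower, and in deposited signal 392 higher and 100 lower.

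A stricter view asks for 2-fold in each of the 48 windows. Of 1231 positions with a value in all windows, 26 were over 2-fold higher in thymus throughout (2.11%). All 26 lay between 51900000 and 51978000, a span of 78 kb, with 21 of them on the gene side of the promoter viewpoint and 5 from it upstream. The longest runs were 51948000 to 51952000, with a mean relative signal of 1.19 in thymus and 0.0943 in ES cells, and 51974000 to 51978000, with 1.70 in thymus and 0.333 in ES cells. The ES value of the first run equals the commonest value of that library. ES cells were over 2-fold higher throughout at 12 positions (0.975%), all on the Kcnh8 side. The longest of these runs was 52633000 to 52639000, with 0.198 in thymus and 1.37 in ES cells. Scaling decides these counts as well. Scaled to the median, 0 positions were higher in thymus throughout and 42 higher in ES cells. In deposited signal 113 were higher in thymus, 47 of them within the same 78 kb and all between 51895000 and 52354000, and 0 were higher in ES cells.

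**Figure D4:**
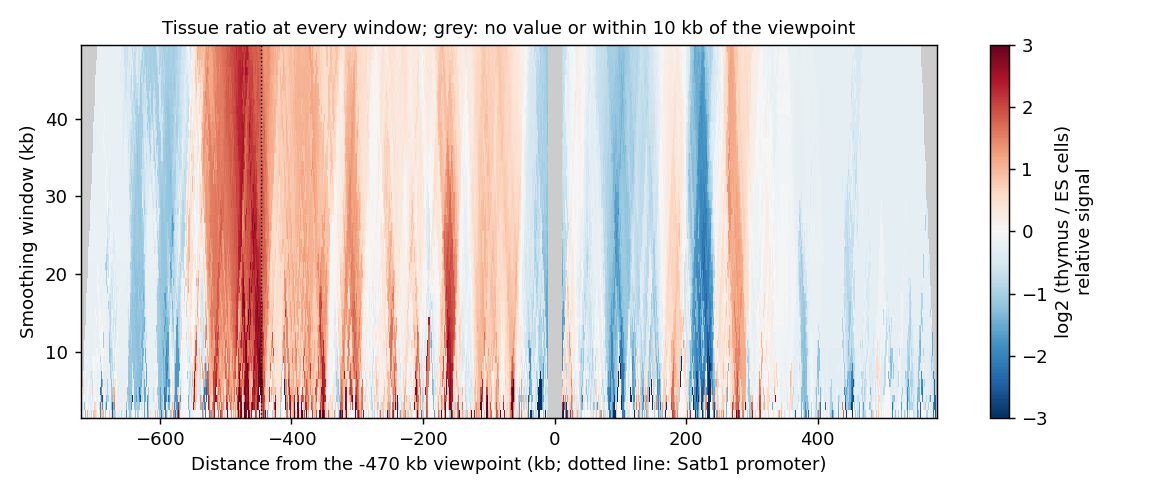
Log2 ratio of relative signal, thymus over ES cells, by distance from the viewpoint (kb, horizontal) and smoothing window (kb, vertical); red is higher in thymus, blue higher in ES cells, and colours are cut off at 3 on either side. A red column stands at the Satb1 promoter (dotted line) and to its left, through all windows, and blue columns stand near 100 and 216 kb on the Kcnh8 side.

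The thymus signal reached past the promoter into the stretch that the Satb1 gene occupies and then declined. In bins of 25 kb from 51950000 downwards, relative signal in thymus was 1.72, 0.897, 0.541, 0.350 and 0.274, and 0.124 in the bin from 51825000. ES cells had 0.371, 0.199, 0.134, 0.332, 0.242 and 0.326 in the same 6 bins. The ratio of thymus to ES cells was 4.65, 4.50 and 4.03 in the first 3 bins and 1.05 in the fourth, so the excess in thymus ended near 51900000. Farther on ES cells were higher, with a ratio of 0.382 in the bin from 51825000, 0.389 in that from 51800000 and 0.232 in that from 51775000, at levels of 0.124 of the library mean or less in thymus. The highest O/E of the thymus library lay in this region, at 51959000, 15 kb to the gene side of the promoter viewpoint, with 2.98 in thymus and 1.88 in ES cells.

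On the Kcnh8 side both profiles ended in a step, at different places. In thymus relative signal was 2.10 in the bin from 52575000 and 1.51 in that from 52600000, then 0.261 in that from 52625000, a 5.80-fold step. ES cells had 2.06, 1.22 and 1.12 in those bins and 1.14 in that from 52650000, then 0.152 in that from 52675000, a 7.53-fold step. At the place of the thymus step the ES fold was 1.09, and at the place of the ES step the thymus fold was 1.58. The 2 steps thus lay 50 kb apart, the thymus step nearer the viewpoint. Thymus signal went on beyond its step, with 0.254 in the bin from 52675000. In the bins from 52675000, 52700000 and 52725000 it was above ES cells, by ratios of 1.67, 1.36 and 1.65 in relative signal. A step within a library does not depend on how libraries are scaled. Each step is the largest fold between neighbouring bins of its library on that side, a rule chosen after the values were seen. From the promoter viewpoints, which are other libraries, the fold between the bins from 52600000 and 52625000 was 4.20 in thymus and 1.24 in ES cells, where ES signal was 0.124 of the library mean or less. It was 14.6 from the +1.5 kb and 1.96 from the -6 kb viewpoint in thymus.

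Up to 5 maxima were taken per library from the top 25% of its signal, no closer than 20 kb to each other. Thymus had its maxima at 51959000, 52042000, 52107000, 52604000 and 52324000. O/E there was 2.98, 2.81, 2.10, 1.94 and 1.74 in thymus and 1.88, 1.97, 1.45, 1.28 and 1.11 in ES cells. ES cells had their maxima at 52085000, 52577000, 52657000, 52397000 and 52525000. There O/E was 1.40, 0.866, 0.493, 0.562 and 0.491 in thymus and 2.39, 1.98, 1.82, 1.41 and 1.39 in ES cells. The nearest ES maximum lay 22 to 126 kb from each thymus maximum. With so few maxima, that they do not coincide says little about the profiles.

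By the decay pooled over both sides, the largest differences with thymus higher were 52212000 with a difference of log2 O/E of 1.70, 51970000 (the +1.5 kb viewpoint) with 1.65, 52354000 with 1.36, 52305000 with 1.07 and 52178000 with 1.05, on the Satb1 side. With a decay for each side these 5 were 0.74, 1.32, 1.10, 0.37 and 0.34, so 3 of them were within 2-fold. At 52354000, 66 kb from the viewpoint, the signal was 0.128 in thymus, between 0.0773 and 0.205, and 0.0275 in ES cells, between 0.0115 and 0.0717. There the lower thymus value exceeded the higher ES value in deposited signal, on average over the target. After division by the library means, 0.0284 in thymus and 0.0186 in ES cells, it did not. At 52212000 the signal was 0.0284 in thymus and 0.00657 in ES cells, and the ES value was below expectation. The Satb1 promoter viewpoint has libraries cut with another pair of enzymes. From it the difference at 52212000 was 2.02, at 52305000 1.70, at 52354000 0.86, at 52178000 0.53 and at 52324000 0.14. At 52520000 it was -2.01, at 52651000 -0.45, at 52631000 -0.06, at 52398000 -1.46 and at 52576000 -0.68. ES signal at these last positions was 0.174 of its library mean or less. The sign was turned at 51959000, with -1.60 against 0.67 from the -470 kb site, and at 52085000, with 0.61 against -0.77. It was kept at the other named positions that have a value from both viewpoints. Of the positions with a turned sign, 51959000 lies 15 kb from the promoter viewpoint, much nearer than to the -470 kb site, so its values come from unlike distances. The 5 positions with the largest difference in the other direction were 52520000, 52651000, 52631000, 52398000 and 52576000, with -2.33, -2.05, -1.50, -1.35 and -1.20. With a decay for each side they were -1.65, -0.87, -0.36, -0.76 and -0.78, so 52520000 alone stayed beyond 2-fold. At 52520000, 100 kb towards Kcnh8, the signal was 0.00933 in thymus and 0.0357 in ES cells. At 52398000 thymus was empty at 5 of 5 positions from 52395000 to 52399000, where ES cells had 0.0770 to 0.183. Over all positions, O/E was over 2-fold higher in thymus at 61 (4.78%) and over 2-fold lower at 203 (15.9%). Of the 203, 123 lay beyond 300 kb on the Kcnh8 side. There 89.9% of thymus positions were at or below the library's commonest value, and 79.8% of ES positions were. The decay fitted over both sides takes its thymus level at those distances largely from the Satb1 side. O/E was above 1 at 70.1% of positions in thymus and 60.3% in ES cells on the Satb1 side, and at 11.6% in thymus and 28.4% in ES cells on the Kcnh8 side. With a decay for each side, 25 positions (1.96%) were over 2-fold higher in thymus and 19 (1.49%) over 2-fold lower, and 17 of the 25 lay on the Satb1 side.

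**Figure D5:**
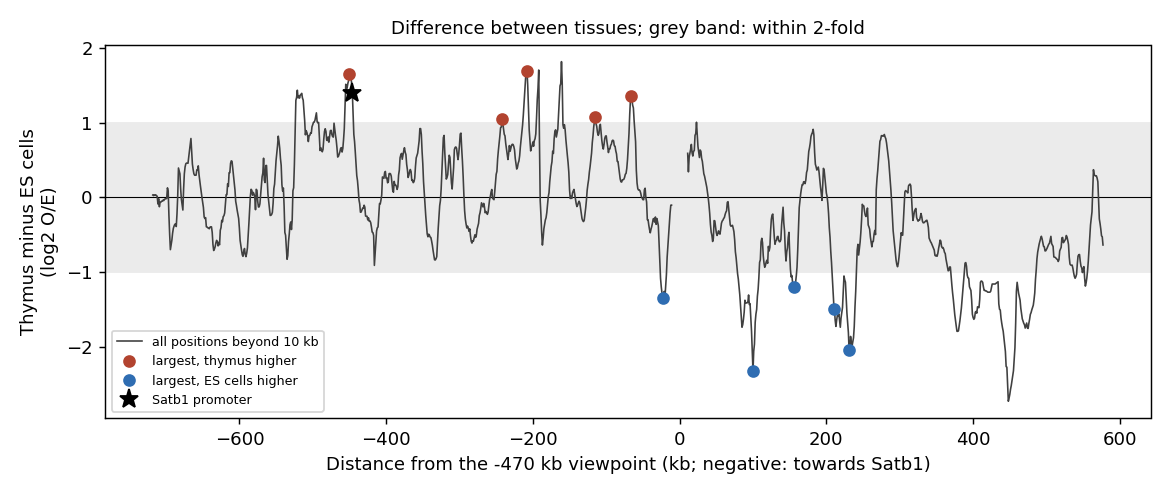
Difference of log2 O/E, thymus minus ES cells, against distance from the viewpoint in kb; the grey band is within 2-fold, the star is the Satb1 promoter (1.39), red points are the 5 largest differences with thymus higher and blue points the 5 largest with ES cells higher among positions in the top 25% of signal of the higher library. Red points lie on the Satb1 side, from 1.05 to 1.70, and 4 of 5 blue points on the Kcnh8 side, from -2.33 to -1.20.

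The lower to higher values of a window show the spread of fragment ends within it and not the spread between replicates. They lay apart, with thymus above ES cells, at 3 positions (0.235%), which were 52262000, 52356000 and 52564000 (the last with an empty ES band), and with ES cells above thymus at 55 (4.31%). At 18 of the 55 the higher thymus value was itself empty. A further 29 lay beyond 400 kb on the Kcnh8 side, mostly at the lowest values of both libraries, and at all 29 the deposited bands overlapped and came apart through division by the library means. In deposited signal the bands lay apart at 21 positions with thymus higher and 18 with thymus lower. The Satb1 promoter was in neither set. Looking back from the Satb1 promoter, the -470 kb site had a relative signal of 1.47 in thymus and 0.103 in ES cells, with a difference of log2 O/E of 1.11. ES signal from there was also low at other far positions, such as 0.0866 at 52525000 and 0.0955 at 52577000. The difference was larger at 52212000, with 2.02, and 52604000, with 1.61, and smaller or negative at others, such as 0.14 at 52324000.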

How the data were processed

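The deposited signal is normalized and smoothed by running medians, per the file names, and has no header. Per the submitters' processing notes the build is mm9. Aligner, read filters, read number and the quantiles behind the lower and higher values: not given in the sources used here. Without read numbers, no counting interval can be had. The zone of 10 kb to either side of the viewpoint was dropped, and positions under 1e-09 were counted as empty. The decay was an isotonic fit (scikit-learn 1.9.0, numpy 2.4.6, scipy 1.17.1). On simulated data O/E gave each planted peak the right direction but understated its size, since the decay takes up part of a peak. The simulated decay was the same on both sides, with no empty positions and no commonest value, unlike these data. With many planted peaks some missed 2-fold in O/E, and a sparser design, in which all passed, was added after that was seen. Positions are named by rule: the Satb1 viewpoints, at most 5 O/E maxima in each library and at most 5 differences per direction, each at least 20 kb apart and with signal in the top 25% of the higher library, plus the genes of the locus. The members and lists were chosen with earlier results of these data known. Alternatives covered window, target width, pseudocount, decay, scaling and the zone left out. Of 21 libraries, 8 were used: both -470 kb libraries, 4 of the Satb1 promoter and its neighbours, and the Hba-a1 pair with and without template dilution.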

Additional observations from a re-analysis of the deposited data

How the results depend on the processing

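The difference of log2 O/E at the Satb1 promoter had thymus above ES cells in all 13 alternatives. Shifts were judged against the technical pair's SD of 0.48. It was 0.67 with the 40 kb window, 0.91 with targets of 10 kb to either side, 2.31 with a power-law decay, 2.24 with no decay and 2.73 in deposited signal, the last chosen after seeing the data. The other 8 lay within that SD. Among these was 1.61 with no decay and scaling to the median, which changes both settings together and lies below the 2.24 of no decay alone. Counts of positions with thymus over 2-fold higher were 115 with a pseudocount of 50%, 114 scaled to the median and 392 in deposited signal. Counts with thymus over 2-fold lower were 118 and 77 with the 20 and 40 kb windows, 87 with a pseudocount of 50%, 349 scaled to the median and 100 in deposited signal. Window values lay apart with thymus higher at 37, 0, 0 and 0 positions with the 2, 10, 20 and 40 kb windows, at 1 scaled to the median and at 21 in deposited signal, and with thymus lower at 98, 29, 11 and 1 with those windows and at 18 in deposited signal. The share of signal on the Satb1 side moved by less than 10 percentage points in either tissue. Spearman's rho was 0.84 and 0.87 with the 20 and 40 kb windows. Over 20 named positions and 260 values in other settings, 165 stayed within the SD, 94 moved further in the same direction or towards 0, and 1 turned its sign, 52085000 with 0.27 in deposited signal. The causes were not tested. No paired analysis was possible because each group holds 1 library. The unknown read number limits all low values.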
